A study of Mus musculus with 15 samples.

Results

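The 10 adhesion genes DSP, DSG2, DSC2, PKP2, PKP3, JUP, PERP, NECTIN2, NECTIN4 and EPCAM were followed through 15 RNA-seq libraries of 105K tumors. These 10 genes were taken by name from 24891 genes of the deposited expression table, where all 10 were found. They were chosen with earlier results of these data known, so shares of all genes are given beside their counts as description only. All 10 passed the filter on low values in every comparison of knockdown with control. The 105K cell line was derived from a kidney tumor that arose in a Tsc2+/- mouse, and the cells have lost Tsc2, in the controls as in the knockdown cells, and they were injected under the skin of male wild-type C57BL/6J mice. Each of 5 groups had 3 libraries. Bulk tumors carried a non-targeting shRNA (sh-NC) or sh-B7-H3 (1). Sorted cells carried sh-NC, the same sh-B7-H3 (1), or a further shRNA named sh-B7-H3 (2), and both target B7-H3, an immune checkpoint protein that Cd276 encodes. Sorted cells were those that stayed unlabelled when non-tumor cells were depleted with magnetic beads. The shRNA lines were puromycin-selected pools and not single clones. The labels number the libraries and do not say whether these came from separate animals, so p-values measure the spread between libraries only.

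Desmosomes are spot-like junctions that tie the keratin filaments of neighboring epithelial cells together. Desmogleins and desmocollins, the desmosomal cadherins, span the membrane and bind their partners on the next cell, while plakoglobin and plakophilins link their tails to desmoplakin, which holds the keratin filaments. Nectins are immunoglobulin-like adhesion proteins that start adherens junctions and bind afadin inside the cell, and several are also ligands of receptors on T and NK cells. EpCAM is an epithelial surface protein that binds claudin-7 and modulates cadherin adhesion.

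Values are scaled FPKM, the deposited fragments per kilobase and per sequencing depth, divided by 1 factor per library (0.65 to 1.18), and they are per gene length, so that levels of different genes can be set side by side. The RNA named by MIR6236 took between 6.01 and 79.7% of the FPKM sum, depending on the library, and read totals are not in the table. By the steps between the lowest values, the shallowest library had 0.468 times the depth of the deepest. All 8 epithelial markers were at 1 scaled FPKM or more in every group, with sums of 929 to 1048 in bulk sh-NC, 1209 to 1502 in bulk sh-B7-H3 (1), 1102 to 1232 in sorted sh-NC, 1949 to 2247 in sorted sh-B7-H3 (1) and 2007 to 2220 in sorted sh-B7-H3 (2). EPCAM is itself 1 of these 8. In sorted cells with both shRNAs, 6 of the 8 had a positive log2 fold change and 4 were called higher, where 12.6% of all genes were. CDH1 and PAX8 had lower means with sh-B7-H3 (1) and (2), 212 and 181 against 276 in sorted sh-NC, and 20.2 and 21.6 against 27.7. The 10 leukocyte markers summed to 31.3 to 41.2 in sorted sh-NC and to 59.9 to 92.8 in 5 of the 6 sorted knockdown libraries, but to 519 in sorted sh-B7-H3 (2) replicate 1. That library also held 24.2 scaled FPKM of endothelial markers, against at most 0.907 in any other sorted library. Of the 3 leukocyte markers tested in sorted cells with both shRNAs, 2 were called higher, where 12.6% of all genes were. CSF1R was 0.567 to 1.297 in sorted sh-NC, 4.76 to 5.21 with sh-B7-H3 (1) and 7.32 to 23.3 with sh-B7-H3 (2). CD68 was 24.97 to 33.3, 55.7 to 83.1 and 50.9 to 70.4 in the same groups, and LYZ2 overlapped between knockdown and control. The part of leukocyte markers in the sorted results was not tested. The 8 fibroblast markers summed to 35.9 to 81.8 in sorted sh-NC, 55.8 to 84.6 with sh-B7-H3 (1) and 120.5 to 155 with sh-B7-H3 (2), and the part of these markers in the sorted results was not tested. RNA of Cd276, the target, went with the labels in part. It was 34.0, 20.0 and 17.3 scaled FPKM in sorted sh-NC, 7.29, 14.0 and 11.5 in cells labelled sh-B7-H3 (1), and 23.3, 25.4 and 25.7 in cells labelled sh-B7-H3 (2), and in bulk tumors it was 20.8 to 23.5 with sh-NC and 17.8 to 24.4 with sh-B7-H3 (1). The sorted cells labelled sh-B7-H3 (1) were therefore the knockdown libraries that all lay below their controls in this RNA, by 1.04 on the log2 scale with a limma adjusted p of 0.0547, and every direction given for the other knockdown libraries rests on the label.

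In sorted control cells the adhesion genes spanned a wide range of levels. PERP was highest with 68.8 ± 10.8 scaled FPKM (SD, n = 3), followed by JUP with 49.7 ± 15.8, and the libraries of these neighbors in the order overlapped. EPCAM at 21.6 ± 5.25, PKP2 at 13.6 ± 1.203, DSP at 10.1 ± 4.53, DSG2 at 8.07 ± 2.72 and NECTIN2 at 7.37 ± 0.689 formed the middle, in which PKP2, DSP, DSG2 and NECTIN2 overlapped from each to the next. DSC2 at 1.49 ± 0.605, PKP3 at 1.47 ± 0.214 and NECTIN4 at 0.494 ± 0.0877 were lowest, and NECTIN4 did not reach 1 scaled FPKM in any sorted control library. The order differed in sorted knockdown cells, where EPCAM was at the top with 148.0 ± 21.1 for sh-B7-H3 (1) and 187 ± 29.8 for sh-B7-H3 (2), and its libraries lay above those of PERP in both groups. NECTIN4 stayed last, at 5.67 ± 0.352 and 4.68 ± 0.514.

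**Figure D1:**
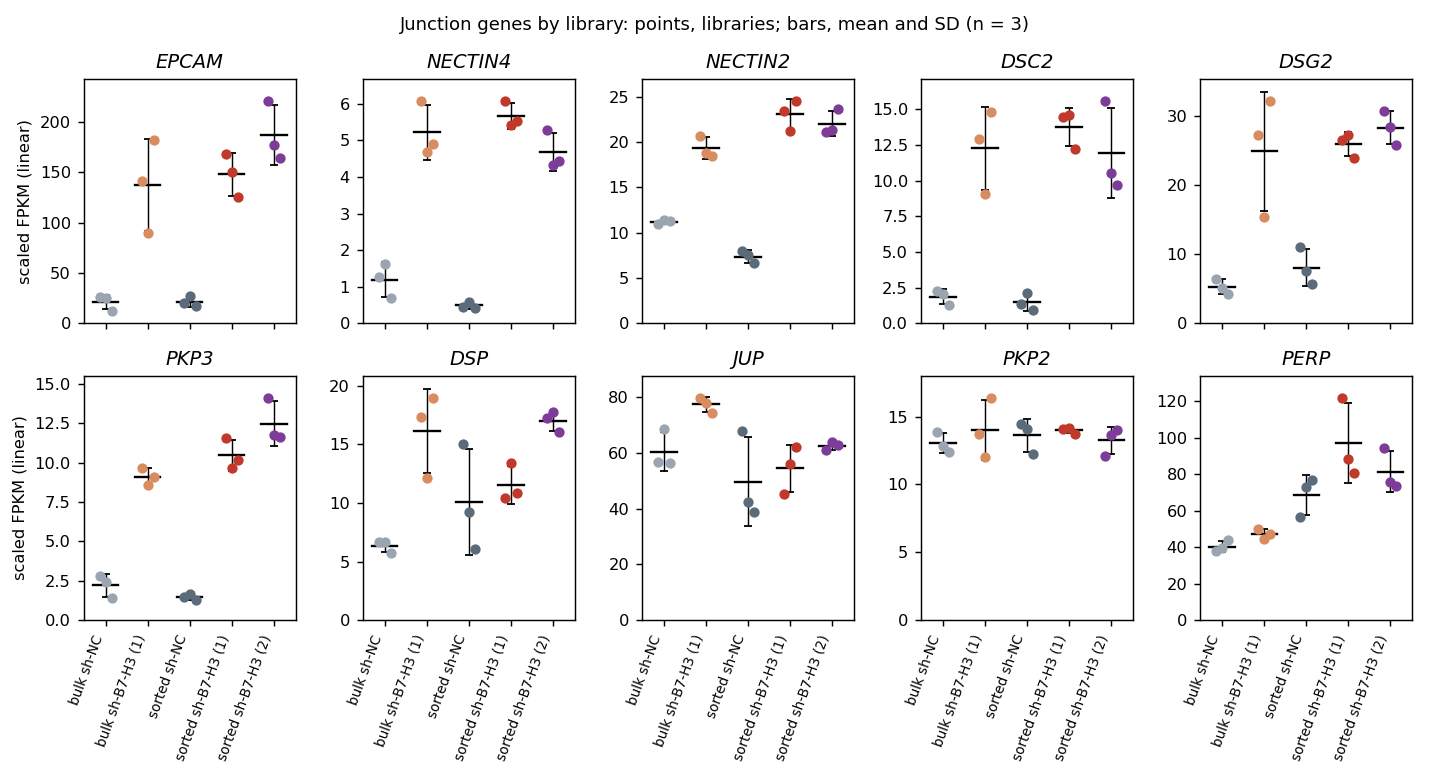
Scaled FPKM (vertical axes, linear, starting at 0) of the 10 adhesion genes in 15 libraries. Points are libraries and black bars the mean and SD of 3 libraries of each group. EPCAM, NECTIN4, NECTIN2, DSC2, DSG2 and PKP3 sit higher in all 6 sorted knockdown libraries than in all 3 sorted control libraries, whereas PKP2 stays between 12.03 and 16.4 throughout.

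The comparison of sorted knockdown cells with sorted sh-NC cells asks how adhesion genes differ in the tumor cells themselves. EPCAM, both desmosomal cadherins of the set (DSG2 and DSC2), PKP3, NECTIN2 and NECTIN4 rose with either shRNA. DSP, JUP, PKP2 and PERP, which include the plaque proteins that all desmosomes share, did not pass the test. With sh-B7-H3 (1), 6 of 10 were called higher (limma, adjusted p under 0.05 over all genes tested) where 9.03% of 11163 genes were. With sh-B7-H3 (2), 6 of 10 were called higher against 11.7% of 11243 genes, and with both shRNAs as 1 group of 6 libraries, 6 of 10 against 12.6% of 11424 genes. In these 3 comparisons none of the 10 was called lower. All 3 share the same sh-NC libraries, so they are not independent of each other. No sh-NC library reached the level of any knockdown library for 7 genes with sh-B7-H3 (1), where 16.7% of all genes did the same, for 7 genes with sh-B7-H3 (2) (20.0%) and for 6 genes with both (13.6%). The median log2 fold change of the 10 genes was 1.57, 1.59 and 1.58, and that of all genes tested was 0.0015, 0.0097 and 0.0070. Among the 6 called, NECTIN4 reached 1 scaled FPKM in no sorted control library and so entered the test through its knockdown libraries alone, which makes the count of the other genes 5 of 9. Without replicate 1 of sorted sh-B7-H3 (2), the library rich in leukocyte markers, 6 of 10 were called with both shRNAs together, and 5 of 9 with sh-B7-H3 (2), where NECTIN4 was then too low to test.

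EPCAM gave the largest log2 fold change of the set with a pseudocount of 1, but with 0.1 and both shRNAs it had 2.95, below NECTIN4 at 3.15 and DSC2 at 3.08. Its RNA measured 20.3, 27.4 and 17.2 scaled FPKM in sorted sh-NC, 168, 150 and 126 in sh-B7-H3 (1) and 221, 177 and 164 in sh-B7-H3 (2). The lowest knockdown library was thus far above the highest control library. The log2 fold change was 2.73 (SE 0.20, adjusted p in limma = 9.77e-05) with sh-B7-H3 (1) and 3.07 (SE 0.20, adjusted p = 7.01e-05) with sh-B7-H3 (2). With both shRNAs it was 2.90, and 0.315% of the genes tested had a larger one.

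DSC2, desmocollin 2, is a desmosomal cadherin that simple epithelia use. It measured 1.37, 2.14 and 0.947 scaled FPKM in sorted sh-NC, 14.5, 14.6 and 12.2 in sh-B7-H3 (1) and 15.6, 10.5 and 9.72 in sh-B7-H3 (2). Its group means were 9.28 and 8.04 times that of the controls, and the groups did not overlap. The log2 fold changes were 2.60 (SE 0.19, adjusted p = 0.000102) and 2.38 (SE 0.23, adjusted p = 0.000327) in limma. DSG2, desmoglein 2, is its usual partner cadherin, and it measured 11.002, 7.58 and 5.63 in sorted sh-NC, 26.5, 27.3 and 23.9 in sh-B7-H3 (1) and 30.6, 28.3 and 25.8 in sh-B7-H3 (2). The control libraries of DSG2 differed among themselves by more than the knockdown libraries did, yet all of them were lower. Its log2 fold changes were 1.61 (SE 0.21, adjusted p = 0.0015) and 1.73 (SE 0.21, adjusted p = 0.00113), and the group means were 3.21 and 3.50 times the control mean.

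The plakophilins, armadillo proteins that cluster desmosomal cadherins, went apart. PKP3 measured 1.45, 1.69 and 1.27 scaled FPKM in sorted sh-NC, 11.6, 9.65 and 10.2 in sh-B7-H3 (1) and 14.1, 11.7 and 11.6 in sh-B7-H3 (2). The libraries of each group lay close together, and the log2 fold changes were 2.21 (SE 0.13, adjusted p = 6.78e-05) and 2.45 (SE 0.14, adjusted p = 5.5e-05). PKP2 measured 14.5, 14.1 and 12.2 in sorted sh-NC, 14.1, 14.2 and 13.7 in sh-B7-H3 (1) and 12.1, 13.6 and 14.0 in sh-B7-H3 (2). Here the groups lay on top of each other. With both shRNAs the log2 fold change of PKP2 was 0.003 with a 95% interval of -0.20 to 0.20, the narrowest of those for the 4 genes that did not pass. In sorted control cells PKP2 was the more abundant plakophilin, and in sorted knockdown cells PKP3 came to 10.5 ± 0.987 and 12.5 ± 1.41 beside 14.0 ± 0.227 and 13.2 ± 0.997 for PKP2.

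DSP and JUP encode desmoplakin and plakoglobin, the plaque proteins between cadherin tails and keratin. DSP measured 14.99, 9.26 and 6.04 scaled FPKM in sorted sh-NC, 10.4, 13.4 and 10.9 in sh-B7-H3 (1) and 17.2, 17.7 and 16.1 in sh-B7-H3 (2). All libraries with sh-B7-H3 (2) were above all controls, and those with sh-B7-H3 (1) fell within the range of the controls. The log2 fold changes were 0.25 (95% interval -0.39 to 0.89, limma adjusted p = 0.66) and 0.78 (0.15 to 1.41, adjusted p = 0.0887). JUP measured 67.8, 42.4 and 38.9 in sorted sh-NC, 45.4, 55.9 and 61.9 in sh-B7-H3 (1) and 60.8, 63.7 and 62.7 in sh-B7-H3 (2), with log2 fold changes of 0.16 (adjusted p = 0.746) and 0.37 (adjusted p = 0.278). Sorted sh-NC replicate 1 was the highest control library for DSP, JUP and DSG2. Without it, with both shRNAs, DSP rose by 0.82 on the log2 scale (limma adjusted p = 0.0303) and JUP by 0.51 (adjusted p = 0.0268), so that 8 of 10 genes were called, and with sh-B7-H3 (2) alone DSP rose by 1.08 (adjusted p = 0.00496) and JUP by 0.61 (adjusted p = 0.00581). With all libraries kept, DSP with sh-B7-H3 (2) was also called on FPKM as deposited (0.997, limma adjusted p = 0.0118) and with all 5 groups fitted together (0.78, adjusted p = 0.0216). Without sorted sh-NC replicate 3 the value of DSP with sh-B7-H3 (1) was -0.04.

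PERP encodes a tetraspan membrane protein of desmosomes that p53 and p63 control. It measured 56.5, 72.9 and 76.9 scaled FPKM in sorted sh-NC, 122, 88.5 and 80.7 in sh-B7-H3 (1) and 94.7, 76.1 and 73.9 in sh-B7-H3 (2). The libraries of sh-B7-H3 (1) were all above the controls and those of sh-B7-H3 (2) overlapped with them. The log2 fold changes were 0.48 (95% interval 0.02 to 0.94, limma adjusted p = 0.18) and 0.25 (-0.15 to 0.64, adjusted p = 0.372), so neither passed. With both shRNAs it was 0.36 (adjusted p = 0.163). PERP was called in 3 other settings, with sh-B7-H3 (1) when all 5 groups were fitted together (adjusted p = 0.049), and with both shRNAs on FPKM as deposited (0.58, adjusted p = 0.047) and with quantile normalization (0.41, adjusted p = 0.0289).

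Both nectins of the set rose. NECTIN2, also called CD112, measured 7.97, 7.504 and 6.62 scaled FPKM in sorted sh-NC, 23.4, 21.2 and 24.5 in sh-B7-H3 (1) and 21.0, 21.4 and 23.6 in sh-B7-H3 (2). The spread within each group was small beside the distance between knockdown and control. The log2 fold changes were 1.52 (SE 0.13, limma adjusted p = 0.00018) and 1.46 (SE 0.12, adjusted p = 0.000184). NECTIN4, a nectin of placenta and skin that many carcinomas express, measured 0.458, 0.594 and 0.431 in sorted sh-NC, 6.07, 5.41 and 5.52 in sh-B7-H3 (1) and 5.27, 4.33 and 4.45 in sh-B7-H3 (2). It had the largest ratio of group means, 11.5 and 9.47, over the lowest control level. Its log2 fold changes of 2.16 (SE 0.11) and 1.92 (SE 0.12) are on the log2(value + 1) scale, which compresses low values, and with a pseudocount of 0.1 they were 3.29 and 3.01. Since NECTIN4 passed the filter through its knockdown libraries alone, its adjusted p-values are given from the fit with no filter, where they were 0.000933 and 0.00113 in limma.

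**Figure D2:**
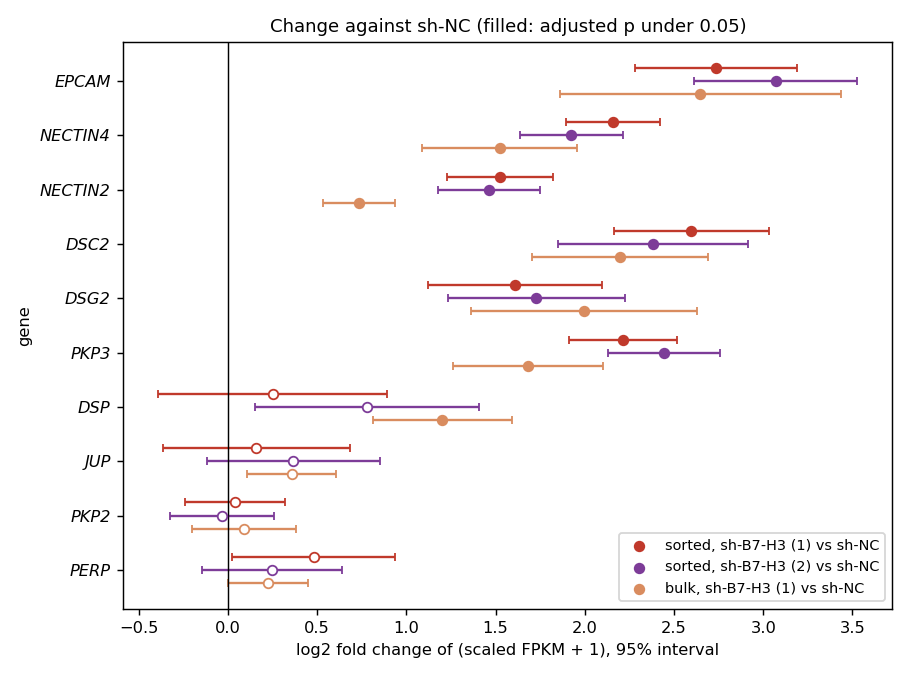
Log2 fold change of scaled FPKM + 1 (horizontal axis) against sh-NC for the 10 genes (vertical axis) in sorted cells with each shRNA and in bulk tumors, with 95% limma intervals. Filled points have an adjusted p under 0.05. EPCAM is farthest to the right in all 3 comparisons, at 2.73, 3.07 and 2.65, and DSP is filled in bulk tumors alone.

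Promoter windows were set beside these values because 6 of the genes rose together. Windows from 250 bases before to 50 bases after the transcription start were given by RefSeq for 5 of the 10 genes on build GRCm38.p6, and 4 of them are shown, 3 of genes that rose with either shRNA in sorted cells (Epcam, Nectin2 and Nectin4) and that of Jup, which did not pass. Epcam lies at chr17:87635729-87636028 on the plus strand, Nectin2 at chr7:19749524-19749823 on the minus strand, Nectin4 at chr1:171369923-171370222 on the plus strand and Jup at chr11:100397741-100398040 on the minus strand. The starts are those of the RefSeq table, and the GENCODE span of Nectin2 begins upstream of its window. Each is read 5′ to 3′ along its gene, and capitals mark the E-box CACCTG or its reverse complement CAGGTG, the letters that repressors of epithelial genes such as Snai1 and Zeb1 are known to bind.
Epcam: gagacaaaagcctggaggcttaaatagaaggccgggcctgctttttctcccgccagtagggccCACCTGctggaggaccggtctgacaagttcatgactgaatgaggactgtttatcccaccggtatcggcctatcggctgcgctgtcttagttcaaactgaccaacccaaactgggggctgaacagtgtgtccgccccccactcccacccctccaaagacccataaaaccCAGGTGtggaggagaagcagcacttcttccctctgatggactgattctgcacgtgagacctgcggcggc
Nectin2: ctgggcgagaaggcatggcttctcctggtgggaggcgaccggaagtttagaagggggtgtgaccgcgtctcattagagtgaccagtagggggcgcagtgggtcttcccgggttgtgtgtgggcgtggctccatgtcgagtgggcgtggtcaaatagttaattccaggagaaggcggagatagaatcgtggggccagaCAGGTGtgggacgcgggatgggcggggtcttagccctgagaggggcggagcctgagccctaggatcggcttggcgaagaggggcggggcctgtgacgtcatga
Nectin4: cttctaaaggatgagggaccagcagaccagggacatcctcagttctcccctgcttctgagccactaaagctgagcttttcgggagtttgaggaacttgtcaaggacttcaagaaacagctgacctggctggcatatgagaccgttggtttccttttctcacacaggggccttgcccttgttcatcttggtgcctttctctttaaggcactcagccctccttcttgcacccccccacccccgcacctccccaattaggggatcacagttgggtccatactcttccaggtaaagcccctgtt
Jup: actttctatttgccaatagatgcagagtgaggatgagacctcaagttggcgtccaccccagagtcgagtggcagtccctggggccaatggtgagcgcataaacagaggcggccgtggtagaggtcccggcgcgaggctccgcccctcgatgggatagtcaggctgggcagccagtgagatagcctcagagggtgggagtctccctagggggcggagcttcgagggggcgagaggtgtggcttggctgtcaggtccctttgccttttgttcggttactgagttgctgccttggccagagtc

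Epcam held this E-box at -187 and -19 from the start and Nectin2 at -53. The window of Dsp, not shown, held it at 4 bases past the start. With these, 3 of the 5 windows held it on either strand, beside 20.2% of 32851 promoter windows of the same length. Nectin4 and Jup had no match, which says only that these letters are not in the windows. The Grainyhead letters AACNNGTT, named for factors of epithelial differentiation, were in 0 of the 5 windows (4.20% of all windows), and the interferon-activated GAS letters TTCNNNGAA were in 0 of the 5 (8.30%), on both strands. The windows differed in base composition, from 53.3% G and C in Nectin4 to 73.0% in Dsp, all above the median of 52.7% over all windows.

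The comparison of the shRNAs with each other, in sorted cells, asks whether the adhesion genes responded to them to the same degree. Of the 10 genes, 1 differed, where 3.40% of 11239 genes did. DSP was lower with sh-B7-H3 (1) by 0.53 on the log2 scale (SE 0.11, limma adjusted p = 0.0494), and all 3 of its libraries lay below all 3 with sh-B7-H3 (2). This call is close to the threshold and was lost without any 1 of 5 of the 6 libraries, with adjusted p-values up to 0.185, while the leukocyte-rich library could be left out (adjusted p = 0.0496). For the genes that rose with both, the differences of sh-B7-H3 (1) minus sh-B7-H3 (2) had 95% intervals of -0.69 to 0.02 for EPCAM, -0.49 to 0.03 for PKP3, -0.35 to 0.11 for DSG2, -0.18 to 0.61 for DSC2, -0.16 to 0.28 for NECTIN2 and -0.01 to 0.47 for NECTIN4. These intervals, from the fit without the replicate block, bound the differences and do not show that the shRNAs act alike. Same-numbered libraries of these groups deviated together. With the replicate number as a block, 2 of the 10 were called, where 1864 of the 11239 genes were, beside 382 without the block. They were DSP at a limma adjusted p of 0.0224 and EPCAM, lower by 0.33 with sh-B7-H3 (1), at an adjusted p of 0.0312.

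In bulk tumors, the comparison of sh-B7-H3 (1) with sh-NC asks whether the pattern is also seen where the tumor is taken whole. The 6 genes called in sorted cells and DSP rose. Of 10 genes, 7 were called higher, where 12.8% of 11800 genes were, and 9 had every knockdown library above every control library, as 24.4% of all genes did. The median log2 fold change was 1.36 for the 10 genes and 0.02 for all genes tested. In bulk samples, fewer cells of a type and less RNA per cell cannot be told apart.

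EPCAM measured 25.8, 25.04 and 12.8 scaled FPKM in bulk sh-NC and 141, 90.0 and 182 in bulk sh-B7-H3 (1). The log2 fold change came to 2.65 (SE 0.33, limma adjusted p = 0.00457), and 0.22% of the genes tested had a larger one. Of the desmosomal cadherins, DSC2 measured 2.30, 2.06 and 1.28 against 12.9, 9.07 and 14.8, and DSG2 measured 6.44, 5.15 and 4.27 against 27.2, 15.4 and 32.1. Replicate 2 was the lowest knockdown library for EPCAM, DSC2, DSG2 and DSP, and it still lay above all controls for each. The log2 fold changes were 2.20 (SE 0.21, adjusted p = 0.00259) for DSC2 and 2.00 (SE 0.27, adjusted p = 0.0053) for DSG2.

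DSP measured 6.64, 6.66 and 5.75 scaled FPKM in bulk sh-NC and 17.3, 12.2 and 18.9 in bulk sh-B7-H3 (1). The control libraries were close together here, unlike those of sorted cells, and DSP rose by 1.20 on the log2 scale (SE 0.17, limma adjusted p = 0.00568). PKP3 rose by 1.68 (adjusted p = 0.00308), from 1.40 to 2.80 in the controls to 8.58 to 9.67. JUP was 56.1 to 68.5 in the controls and 74.4 to 79.6 in the knockdown tumors, with a log2 fold change of 0.36 (95% interval 0.11 to 0.60) that missed the threshold at an adjusted p of 0.0525. JUP was called with quantile normalization (0.48, limma adjusted p = 0.0356), with 1 scaled FPKM required in every library (adjusted p = 0.0490) and without bulk sh-NC replicate 2 (0.45, adjusted p = 0.0484). PERP, at 37.9 to 44.0 and 44.7 to 49.99, also had groups that did not overlap and an adjusted p of 0.127. PKP2 overlapped, at 12.4 to 13.8 and 12.03 to 16.4.

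NECTIN2 measured 10.95, 11.4 and 11.3 scaled FPKM in bulk sh-NC and 20.7, 18.8 and 18.5 in bulk sh-B7-H3 (1), a rise of 0.74 on the log2 scale (SE 0.09, limma adjusted p = 0.00366). On FPKM as deposited it was 0.76 with an adjusted p of 0.146. NECTIN4 measured 1.27, 1.62 and 0.681 against 6.06, 4.69 and 4.90, a rise of 1.52 (SE 0.18, adjusted p = 0.00416). Markers of other cell types moved with the knockdown in bulk. The 8 fibroblast markers summed to 90.6 to 171 in the controls and 278 to 653 in the knockdown tumors, and the 8 skeletal muscle markers to 3.17 to 20.2 and 34.4 to 652, whereas leukocyte sums, of which LYZ2 made the largest part, overlapped (399 to 761 and 417 to 623). Of the 7 leukocyte markers tested, 2 rose, where 12.8% of all genes tested were called higher. CD68, a macrophage marker, was 63.6 to 79.6 in the controls and 97.4 to 124 in the knockdown tumors, and CD3E, of T cells, was 0.261 to 0.583 and 1.78 to 5.99. CD3E reached 1 scaled FPKM in no bulk sh-NC library, so it entered the test through the knockdown tumors alone (limma adjusted p = 0.0348 with no filter). Their part in the bulk values was not tested.

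Whether the effect of sh-B7-H3 (1) differed between sorted cells and bulk tumors was tested as an interaction. Of the 10 genes, 1 passed, where 0.464% of 12062 genes did. NECTIN2 had an effect larger in sorted cells by 0.79 on the log2 scale (SE 0.14, limma adjusted p = 0.0423). Its knockdown level was 23.0 ± 1.69 scaled FPKM in sorted cells and 19.3 ± 1.202 in bulk, and its control level was 7.37 ± 0.689 in sorted cells and 11.2 ± 0.217 in bulk. The call was lost in 16 of 20 other settings, among them FPKM as deposited (adjusted p = 0.40) and the replicate block (adjusted p = 0.0861). DSP had the largest difference in the other direction, -0.95 with a 95% interval of -1.73 to -0.17, and an adjusted p of 0.281. For EPCAM the difference was 0.09 with an interval of -0.83 to 1.00, which is wide because its bulk libraries spread.

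Bulk tumors were also set against sorted cells with the same shRNA. The labels do not say whether bulk and sorted libraries came from the same tumors. Sorted cells were dissociated and depleted with beads, so handling and cell content differ together. Among controls, 2 of the 9 genes tested differed, where 16.9% of 11418 genes did, and NECTIN4 was not tested because it was too low. PERP was lower in bulk by 0.74 on the log2 scale (SE 0.15, limma adjusted p = 0.0175), and NECTIN2 was higher in bulk by 0.55 (SE 0.12, adjusted p = 0.0207). With sh-B7-H3 (1), 2 of 10 differed, where 38.2% of 11677 genes did. PERP was again lower in bulk, by 1.00 (SE 0.16, adjusted p = 0.00439), and JUP was higher in bulk by 0.51 (SE 0.13, adjusted p = 0.0208). The value of JUP was 0.21 on FPKM as deposited (adjusted p = 0.476), and its call was also lost with the replicate block (adjusted p = 0.0533) and without bulk sh-B7-H3 (1) replicate 1 (adjusted p = 0.0832). The leukocyte sums of the bulk libraries were several-fold those of the sorted libraries in the same comparisons, and their part in these values was not tested. Leaving out bulk sh-NC replicate 1, 2 or 3, or sorted sh-NC replicate 2, ended both calls among controls, as did leaving out the libraries in which MIR6236 held most of the summed FPKM, where 0 of the 9 adhesion genes tested were called. Calls over all genes fell as well, from 1924 to 173, 139, 192, 726 and 86, in the order named. In these refits the log2 fold change of NECTIN2 stayed at 0.54 to 0.56 and that of PERP at -0.80 to -0.69.

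The genes around these 10 in the junctions were read from lists chosen for their roles, with both shRNAs against sh-NC in sorted cells. In this comparison 12.6% of 11424 genes were called higher and 7.92% lower. Of 9 other desmosome genes, 3 were tested and 2 rose. DSG3, desmoglein 3 of stratified epithelia, went from 0.559 ± 0.214 scaled FPKM in sorted sh-NC to 4.53 ± 0.833 with sh-B7-H3 (1) and 8.72 ± 0.785 with sh-B7-H3 (2), and its log2 fold change over both was 2.24 (SE 0.25). Among the junction lists it was the gene besides DSP that differed between the shRNAs, lower with sh-B7-H3 (1) by 0.82 (adjusted p = 0.0238). PKP1, plakophilin 1, had a log2 fold change of 1.12, from at most 0.175 in any sorted sh-NC library. DSG3 and PKP1 both reached 1 scaled FPKM in no sorted control library, so they entered the test through knockdown libraries alone. In a fit with no filter, over 18347 genes, their limma adjusted p-values were 0.00107 and 0.0156. The other 6, DSG1A, DSG1B, DSG1C, DSG4, DSC1 and DSC3, were low, at no more than 0.1004 scaled FPKM in any library. Of 8 epidermal markers, 7 were found and 2 tested, and both rose with both shRNAs. KRT14 went from 2.15 to 3.39 in sorted sh-NC to 8.12 to 10.9 and 13.2 to 22.3 in the knockdown groups. KRT10 was 0.481 to 0.663 in sorted sh-NC, 1.05 to 1.90 with sh-B7-H3 (1) and 1.17 to 1.56 with sh-B7-H3 (2), and entered the test through knockdown libraries alone (limma adjusted p = 0.013 with no filter). KRT5, the keratin partner of KRT14 in skin, was at most 0.427 in any library, and KRT1 was at 0 in all sorted sh-B7-H3 (1) libraries. The part of these markers in the results was not tested.

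Of the 7 plakins and keratins that bind desmosomes, 5 rose and none fell, where 12.6% of all genes tested were called higher. KRT19, a keratin of ducts, went from 164 ± 34.2 scaled FPKM to 494 ± 41.9 and 521 ± 27.7, a log2 fold change of 1.64 (SE 0.14, limma adjusted p = 1.6e-05). EVPL and PPL, the plakins envoplakin and periplakin, rose by 1.61 and 1.36, and KRT7 by 1.44. EVPL was at most 0.569 in sorted sh-NC and likewise entered the test through its knockdown libraries alone (adjusted p = 0.000566 with no filter). The median over this list was 1.36, beside 0.0070 for all genes tested. All 4 genes of the EpCAM list rose, with a median of 2.87. CLDN7, the claudin that EpCAM binds, rose by 3.45 (SE 0.18, adjusted p = 7.21e-07), from 3.16 ± 0.351 to 41.6 ± 11.1 and 48.9 ± 7.95. ST14, the protease matriptase that cuts EpCAM, rose by 2.89, and its inhibitors SPINT1 and SPINT2 rose by 2.86 and 0.86.

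The list of other nectin family genes and afadin, which leaves out NECTIN2 and NECTIN4, had calls in both directions. Of its 8 genes, 6 were tested, 2 rose and 1 fell, with a median of -0.09. Of all genes tested, 12.6% were called higher and 7.92% lower. CADM4, a nectin-like molecule, rose by 1.66 (SE 0.15, limma adjusted p = 2.73e-05) and AFDN, which encodes afadin, by 0.94 (SE 0.19, adjusted p = 0.00606). NECTIN3, the partner that NECTIN2 can bind across cells, fell by 1.12 (SE 0.23, adjusted p = 0.0059), from 18.3 ± 1.26 scaled FPKM to 8.56 ± 2.36 and 7.81 ± 3.05. The receptors of nectins on lymphocytes were too low to test in sorted cells. Of the adherens junction core, 0 of 5 rose and 2 fell, where 7.92% of all genes tested were called lower: CTNNB1, beta-catenin, by 0.87 (SE 0.13, adjusted p = 0.000855) and VCL, vinculin, by 0.68 (adjusted p = 0.0125). CDH1, E-cadherin, stood at 276 ± 74.7 in sorted sh-NC and 212 ± 24.3 and 181 ± 14.0 in the knockdown groups, a log2 fold change of -0.46 (95% interval -0.84 to -0.08, adjusted p = 0.0854).

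Bulk tumors gave counts for the same lists of 2 of 2 tested other desmosome genes higher, 4 of 7 plakins and keratins higher, 4 of 4 EpCAM partners higher, 2 of 6 genes of the nectin list higher and 1 lower, and 1 of 5 adherens junction genes lower, where 12.8% of all genes were called higher and 8.52% lower. DSG3 and EVPL entered this test through the knockdown tumors alone (adjusted p = 0.0203 and 0.0108 with no filter). DSG3 rose by 1.56 in limma, EVPL by 1.83, CLDN7 by 2.15 and AFDN by 1.07 (adjusted p = 0.00573). CTNNB1 fell by 0.55 (adjusted p = 0.00992), and PVR, the poliovirus receptor of this family, fell by 0.51 (adjusted p = 0.0192). CDH1 was at -0.13 with a 95% interval of -0.45 to 0.20. NECTIN3 was at -0.15 with an adjusted p of 0.601, and its interaction with the material had an adjusted p of 0.253.

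**Figure D3:**
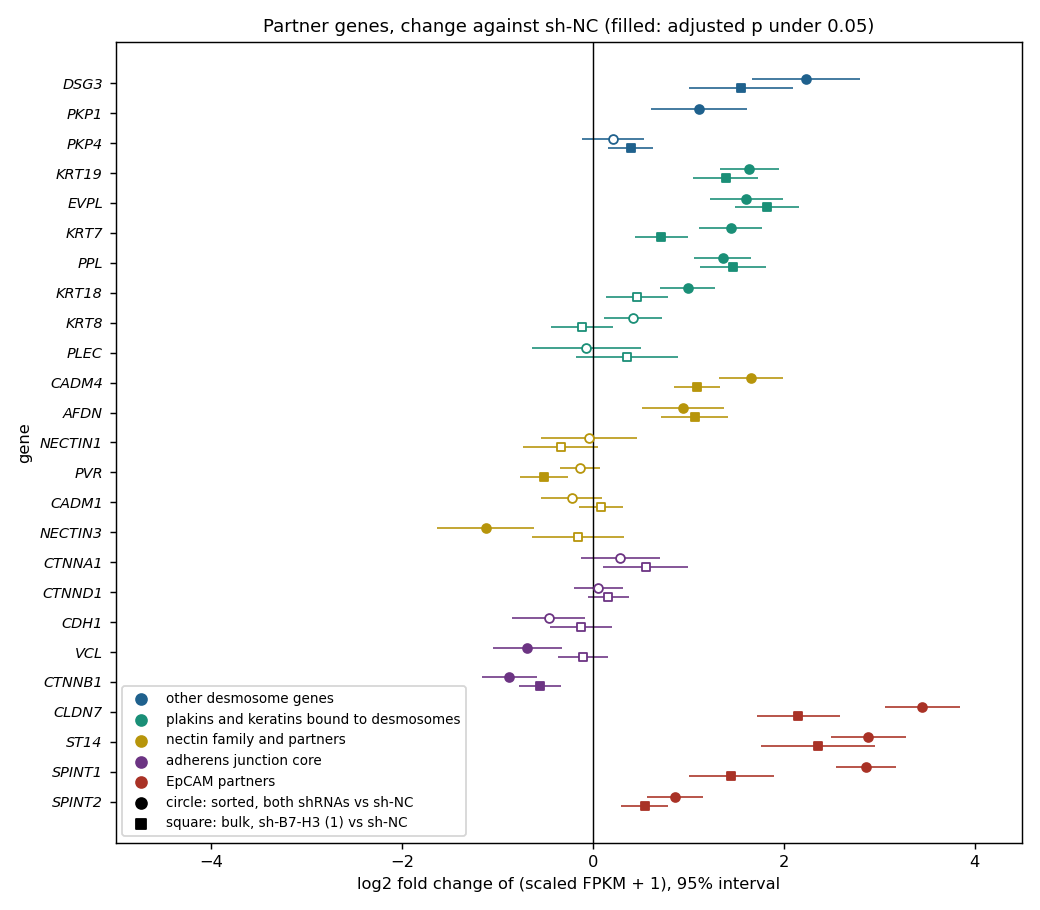
Log2 fold change of scaled FPKM + 1 (horizontal axis) with 95% limma intervals for partner genes of 5 lists (vertical axis). Circles are sorted cells with both shRNAs against sh-NC, squares the bulk comparison, and filled points have an adjusted p under 0.05. The 4 EpCAM partners all lie to the right, from 0.86 to 3.45 in sorted cells, and CTNNB1 lies to the left in both materials.

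Across the 15 libraries, the genes most like the mean log2 value of the 10 adhesion genes included MYO3B (Pearson's r 0.996), MAP7 (0.994), EPB41L4B (0.993) and ATP8B1 (0.993), out of 11594 genes outside the set. These correlations describe libraries that share the split into knockdown and control. MYO3B, an unconventional myosin, had means of 0.923 scaled FPKM in bulk sh-NC, 7.19 in bulk sh-B7-H3 (1), 1.04 in sorted sh-NC, and 8.44 and 8.93 in sorted cells with the 2 shRNAs. Of the 10 genes themselves, EPCAM had an r of 0.994 to that mean and PKP2 an r of 0.284.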

How the data were processed

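The authors deposited 1 table of FPKM for 24917 entries and 15 libraries, although its name speaks of gene counts. A further table they deposited holds log2(FPKM + 1) of 1000 genes, 5 of the 10 adhesion genes among them, and was used only as a check (999 genes matched, largest difference 8.91e-08). The labels name build mm10. The aligner and annotation are not given in the sources used here, and read totals are unknown.

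After 26 entries with symbols turned into dates were left out, each library was scaled by a median-ratio factor, computed from the 9872 genes that reached 1 FPKM in all libraries, and a pseudocount of 1 was added before log2. Genes that reached 1 scaled FPKM in 3 or more compared libraries entered limma 3.58.1 (R 4.3.3, trend of variance on mean), with Benjamini-Hochberg adjustment over all genes tested. The scripts were tested on simulated data and ran under Python 3.11.15 with numpy 2.4.6 and pandas 2.3.3. The genes, lists and tests were chosen with earlier results of these data known. The genes named are the 10, the target, at most 4 past the threshold per list by size of log2 fold change, CDH1 and AFDN, and the 5 most like the mean of the 10, apart from items not reported here. The desmosome genes near 0 and KRT14, KRT10, KRT5, KRT1, CD68, CD3E, LYZ2, CSF1R and PAX8 were named after their values were seen. The fit with no filter was extended to list genes after seeing the data. Promoters come from RefSeq (GRCm38.p6).

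Same-numbered libraries of the 2 sorted knockdown groups deviated together (r from 0.209 to 0.229 in 3 of 3 pairs). The main fit of that comparison was nonetheless unpaired, and the replicate block was an alternative to it. Alternatives changed the scaling, pseudocount, filter, samples in the fit, replicate block and size of change, or left out each replicate. Leaving out the libraries in which MIR6236 held most of the summed FPKM was chosen after seeing the data.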

Additional observations from a re-analysis of the deposited data

Results flagged for a closer look

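PKP2 in sorted sh-B7-H3 (2) replicate 1, at 12.1 scaled FPKM, stood apart from the other sorted knockdown libraries, its gap to the nearest being past Dixon's 95% critical value of 0.625 for 6 libraries. All 10 genes were screened this way, and chance alone flags about 1 group in 20. Sorted sh-B7-H3 (2) replicate 1 is also the library rich in leukocyte markers, and PKP2 in sorted sh-NC replicate 3 was 12.2. DSP differed between the shRNAs in sorted cells by -0.53 on the log2 scale, sh-B7-H3 (1) minus sh-B7-H3 (2), in a direct test (limma adjusted p = 0.0494). NECTIN2 had an effect of sh-B7-H3 (1) larger in sorted cells than in bulk tumors by 0.79 on the log2 scale, tested as an interaction (limma adjusted p = 0.0423).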

How the results depend on the processing

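Of 1170 refits of single genes, 1077 kept the direction and the side of the threshold, 36 changed sign, 39 lost a call and 18 gained one. Of 355 refits of genes called against sh-NC, 354 kept the call, the exception being NECTIN2 in bulk on FPKM as deposited (0.76). Refits in which a gene failed the filter are in neither count. In each sorted comparison of 1 shRNA this left NECTIN4 10 refits and DSC2 13, beside 14 for EPCAM. Leaving out 1 library gave 5 to 6 called genes for sorted sh-B7-H3 (1), 5 to 8 for sorted sh-B7-H3 (2), 6 to 8 for both and 7 to 8 in bulk; the 5 arose because NECTIN4 then failed the filter. With 1 FPKM required in every library, 4 were called for each sorted comparison, since DSC2 and NECTIN4 were not tested. Between the shRNAs the count of 1 became 0 without a filter, with all 5 groups fitted together and with an absolute log2 fold change above 1, 2 with the replicate block, and 0 to 1 without single libraries. With that block 1864 genes were called in all. For the difference between sorted cells and bulk it became 0 on FPKM as deposited, with quantile normalization, with a pseudocount of 0.1, with 1 FPKM in every library, with the replicate block, above a log2 fold change of 1 and without the MIR6236-rich libraries, and 0 to 1 without single libraries. For bulk against sorted sh-NC the 2 became 0 as deposited, above a log2 fold change of 1 and without the MIR6236-rich libraries, and 0 to 3 without single libraries. For bulk against sorted sh-B7-H3 (1) the 2 became 1 as deposited and with the replicate block, 0 above a log2 fold change of 1, and 1 to 3 without single libraries. The cause was not tested. The replicate block changed no other call apart from DSG2 in bulk against sorted sh-NC (adjusted p = 0.0472). Outside the sorted knockdown groups the r of same-numbered libraries ranged from -0.463 to 0.443, and the labels do not say what such libraries share. All changes of sign were in values that had not been called. PKP2 became -0.00227 (sorted sh-B7-H3 (1)) and -0.036 (both shRNAs) with quantile normalization, and 0.18 (sorted sh-B7-H3 (2)) and 0.10 (sorted minus bulk) as deposited. With quantile normalization, EPCAM became -0.15 (sorted minus bulk) and 0.10 (bulk against sorted sh-B7-H3 (1)) and DSC2 -0.084 (bulk against sorted sh-NC). Without the MIR6236-rich libraries, PKP2 became 0.0017 and EPCAM 0.42 (bulk against sorted sh-NC), and DSG2 0.19, DSC2 0.010, PKP2 0.090 and EPCAM 0.12 (bulk against sorted sh-B7-H3 (1)). Without single libraries, DSP ranged from -0.038 to 0.55 (sorted sh-B7-H3 (1)). PKP2 ranged from -0.027 to 0.086 (sorted sh-B7-H3 (1)), -0.10 to 0.023 (sorted sh-B7-H3 (2)), -0.066 to 0.047 (both), -0.020 to 0.19 (bulk), -0.15 to 0.062 (sorted minus bulk) and -0.12 to 0.090 (bulk against sorted sh-B7-H3 (1)). JUP ranged from -0.35 to 0.046 and EPCAM from -0.19 to 0.40 (sorted minus bulk). EPCAM ranged from -0.23 to 0.25 (bulk against sorted sh-NC) and -0.38 to 0.12, DSG2 from -0.32 to 0.19 and DSC2 from -0.31 to 0.010 (bulk against sorted sh-B7-H3 (1)). Depth is unknown in reads, which limits values under 1 scaled FPKM most.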
